A study of Mus musculus with 60 samples.

Results

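The nuclear genome encodes most subunits of the mitochondrial respiratory chain, and these genes were followed through development and after lipopolysaccharide (LPS) in RNA sequencing libraries from mouse microglia, the resident macrophages of the brain. Members were taken by gene symbol, as all genes that begin with Nduf, Sdh, Uqcr, Cox4 to Cox8 or Atp5, without the assembly factors named Ndufaf and Sdhaf. This gave 86 of 22869 gene symbols, of which 38 were assigned by symbol to complex I, 4 to complex II, 8 to complex III, 19 to complex IV and 17 to complex V. The symbol rule also takes in a few genes that are not subunits of these complexes. Cox4nb is an older name of Emc8, which encodes a part of the endoplasmic reticulum membrane complex. Cox7a2l encodes a factor that joins complexes III and IV into supercomplexes. Atp5s and Atp5sl, counted with complex V by symbol, are older names of Dmac2l and Dmac2, which are not counted as subunits of the ATP synthase. Ndufa4 was first assigned to complex I and is now known as a subunit of complex IV.

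The series holds 60 polyA libraries from C57BL/6N mice. Groups were set by stage, treatment and the sex in the sample title, which differs from the sex characteristic in 10 libraries. Male and female below therefore mean the sex by title. At embryonic day 18 (E18) there were 4 male and 3 female libraries, at postnatal day 4 (P4) 4 of each sex, and at P14 10 of each sex, all untreated. At P60 there were 7 male and 6 female libraries from mice given LPS, the endotoxin of Gram-negative bacteria, and 5 male and 7 female libraries from mice given saline. The sources used here give neither the LPS dose nor the time between injection and collection. Libraries held between 802016 and 3497454 counts (median 1907007.5). The labels do not say that libraries of a group came from separate animals, so p-values measure the spread between these libraries, which may be technical. They carry 17 dates, and 0 of these hold libraries of different stages or of both treatments, so date and stage, or date and treatment, cannot be told apart.

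As a check of the microglial label, all 18 microglial markers were detected at every stage, with a summed level of 6200 to 10290 CPM (counts of a gene scaled to 1000000 per library) at E18, 11560 to 25950 at P4, 20980 to 43480 at P14, 25230 to 46890 at P60 with LPS and 29340 to 60210 at P60 with saline. Other cell types were present too. Summed neuronal markers (16 measured) ran from 754.5 to 3656 CPM at E18, from 64.08 to 246.8 at P4, from 24.79 to 284.5 at P14, from 6.009 to 27.75 at P60 with LPS (Slc17a7 at 0) and from 20.49 to 37.67 at P60 with saline (Nefl at 0). Red blood cell markers (8 measured) summed to 355.1 to 2124 CPM at E18, 59.85 to 450.2 at P4, 2.128 to 334.5 at P14 and 0 to 784.3 at P60 with saline, and astrocyte markers (10 measured) to 923.2 to 2847, 1187 to 2489, 157.5 to 1547 and 194.5 to 377.3 CPM over the same stages. Neutrophil markers (9 measured) summed to 188.4 to 1537 CPM at E18 (median 301) and 310.1 to 8602 at P4 (median 1335). At P14 they summed to 69.7 to 625.5 CPM and at P60 with saline to 20.53 to 426.3. These lists and the microglial markers moved with stage, and their part in the stage results was not tested. The 9 choroid plexus markers, led by transthyretin (Ttr), summed to 7080 to 256900 CPM at E18, 13510 to 63030 at P4, 1048 to 80440 at P14, 9765 to 76290 at P60 with LPS and 181 to 123600 at P60 with saline. Because these are bulk samples, fewer cells of a type and less RNA per cell cannot be told apart.

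A pair of libraries stood apart from the rest. In the library labelled M_E18 4, Ttr alone took 24.77% of all counts and 44.98% of counts lay on transcripts of at most 1500 bases, against a median of 10.85% over all libraries. Its sex characteristic reads female and it had 0 counts on Y-linked genes. In F_P60_Sal 6, the shallowest library, Ttr took 11.99% of counts and short transcripts 27.9%. The main counts are also given without these libraries.

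The respiratory chain passes electrons from NADH through complex I, or from succinate through complex II, to ubiquinone, then through complex III and cytochrome c to complex IV, where oxygen is reduced. Complexes I, III and IV pump protons across the inner mitochondrial membrane, and complex V, the ATP synthase, uses the gradient to make ATP. Complexes I, III, IV and V also contain subunits encoded in mitochondrial DNA, which are not analysed here. In macrophages, LPS is known to shift metabolism towards glycolysis, and activated cells can use succinate oxidation and reverse electron flow through complex I to make reactive oxygen species.

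The promoters of 6 members are shown. Cox6a1 is shown for the motifs it holds, and the others because results turn on them or set them side by side. Each is the 250 bases before the annotated start, 5′ to 3′ on the strand of the gene, from RefSeq on GRCm38.p6. Cox6a1 (chr5:115348959-115349208, minus strand) is the member promoter shown that holds all 3 searched motifs. Cox7a2 (chr9:79759854-79760103, minus strand) and Cox8a (chr19:7217617-7217866, minus strand) belong to the widely expressed isoforms, and Cox7a1 (chr7:30183921-30184170, plus strand) and Cox8b (chr7:140900447-140900696, minus strand) to the isoforms of heart and skeletal muscle. Ndufa8 (chr2:36049339-36049588, minus strand) is an accessory complex I subunit and had the larger fall of the 2 members called with LPS. Capitals mark matches, on either strand, to the NRF1 site (GCGCA followed directly by its reverse complement TGCGC), to CCGGAAG (an ETS site of the kind bound by GABPA) and to CCAAT (the CAAT box).
Cox6a1: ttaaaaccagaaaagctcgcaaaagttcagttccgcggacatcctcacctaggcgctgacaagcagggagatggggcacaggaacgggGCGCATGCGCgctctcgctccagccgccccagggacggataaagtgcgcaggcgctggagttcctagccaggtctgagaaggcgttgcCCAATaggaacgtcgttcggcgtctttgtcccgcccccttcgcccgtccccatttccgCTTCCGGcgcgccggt
Cox7a2: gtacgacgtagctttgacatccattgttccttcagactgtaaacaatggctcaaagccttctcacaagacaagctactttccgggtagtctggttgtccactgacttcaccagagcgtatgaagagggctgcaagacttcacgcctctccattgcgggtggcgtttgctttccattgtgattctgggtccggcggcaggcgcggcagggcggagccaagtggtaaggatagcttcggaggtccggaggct
Cox7a1: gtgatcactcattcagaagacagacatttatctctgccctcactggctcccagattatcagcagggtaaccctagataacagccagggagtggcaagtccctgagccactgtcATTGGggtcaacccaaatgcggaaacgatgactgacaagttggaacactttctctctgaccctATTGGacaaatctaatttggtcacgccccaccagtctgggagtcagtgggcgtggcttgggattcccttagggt
Cox8a: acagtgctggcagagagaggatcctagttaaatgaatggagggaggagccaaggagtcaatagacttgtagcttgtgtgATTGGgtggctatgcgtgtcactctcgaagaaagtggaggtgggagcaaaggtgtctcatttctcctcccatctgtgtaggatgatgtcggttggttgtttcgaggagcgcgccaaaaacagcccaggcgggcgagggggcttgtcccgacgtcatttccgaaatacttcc
Cox8b: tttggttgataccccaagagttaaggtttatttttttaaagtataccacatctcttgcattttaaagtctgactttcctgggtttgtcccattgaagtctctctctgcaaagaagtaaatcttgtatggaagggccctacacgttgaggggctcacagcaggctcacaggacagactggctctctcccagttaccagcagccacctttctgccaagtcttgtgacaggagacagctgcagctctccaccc
Ndufa8: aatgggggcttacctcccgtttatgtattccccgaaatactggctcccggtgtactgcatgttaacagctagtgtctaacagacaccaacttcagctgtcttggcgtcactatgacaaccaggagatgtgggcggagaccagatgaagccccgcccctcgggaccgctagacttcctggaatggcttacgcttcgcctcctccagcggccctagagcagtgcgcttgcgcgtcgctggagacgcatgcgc

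Of the 86 members, 70 had a promoter entry. The NRF1 site was found in 4 of these promoters, those of Atp5g2, Atp5k, Cox6a1 and Ndufa11, which is 5.71%, against 0.781% (211) of all 27025 promoters of the same length. NRF1 is a transcription factor known for activating respiratory chain genes. The ETS site was found in 11 member promoters (15.7%), among them those of Sdhd, Uqcrh, Uqcr11 and Cox6b1, against 7.05% of all promoters. The CAAT box, a short motif, was found in 31 member promoters (44.3%) against 34.5% of all. No 2 of the motifs overlapped in a member promoter, and the median GC content was 56.2% in member promoters and 52% in all. Of the promoters printed, those of Cox7a2, Cox8b and Ndufa8 held none of the 3 motifs in this window, and that of Cox8b had the lowest GC content, at 47.2%. A match describes the letters and does not show that a factor binds there.

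Levels differed widely between members. Taken per kilobase of transcript, the highest mean over all libraries was that of Atp5b, the catalytic beta subunit of ATP synthase, at 390.8 CPM per kilobase. Cox4i1, the ubiquitous subunit IV of cytochrome c oxidase, led complex IV at 302.4 CPM per kilobase. Uqcrh, the hinge subunit of complex III, led its complex at 295.3, Ndufa4 led the genes named for complex I at 260.9, and Sdhd, a membrane anchor of succinate dehydrogenase, led complex II at 86.38 CPM per kilobase. By median, complexes III, II and V were close, at 74.18, 72.84 and 69.04 CPM per kilobase, with complex I at 45.69 and complex IV at 25.35.

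At the low end, 13 members had a mean under 10 CPM, 8 of them in complex IV. Several of these are alternative isoforms, restricted to muscle, lung or testis in other work. Cox8c, a testis isoform, had no count in any of the 60 libraries, which allows an expected count of up to about 3 over all of them together. Cox7b2 had a count in 1 library. Cox6a2, the muscle isoform of subunit VIa, was at 0 in 32 libraries. Others are subunits that every respiring cell uses, such as Atp5g2, Atp5l, Cox5b, Cox7c, Ndufab1 and Ndufb4. Atp5g2 and Atp5l have transcripts elsewhere in the annotation that match theirs over at least 70% of the length at 95% identity or more, as do Atp5h, Atp5o, Ndufa12 and Ndufs3, and values for these 6 are uncertain because reads could be split between the copies.

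The summed CPM of all members was highest at E18. At E18 the lowest library had 6760, the median library 9825 and the highest 25370 CPM. At P4 these values were 5460, 6270 and 7474 CPM, at P14 3359, 4892 and 9389 CPM, and in P60 saline libraries 3068, 5277 and 13910 CPM. E18 and P4 libraries overlapped, as did those of all later stages. The mean was 11380 ± 6558 CPM at E18 (SD, n = 7), 6284 ± 777 CPM at P4 (n = 8), 5076 ± 1488 CPM at P14 (n = 20) and 6125 ± 2919 CPM at P60 with saline (n = 12). Without M_E18 4 the E18 mean was 9047 ± 2438 CPM (n = 6) and the highest E18 library had 12700 CPM. Without F_P60_Sal 6 the P60 saline mean was 5418 ± 1665 CPM (n = 11).

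**Figure D1:**
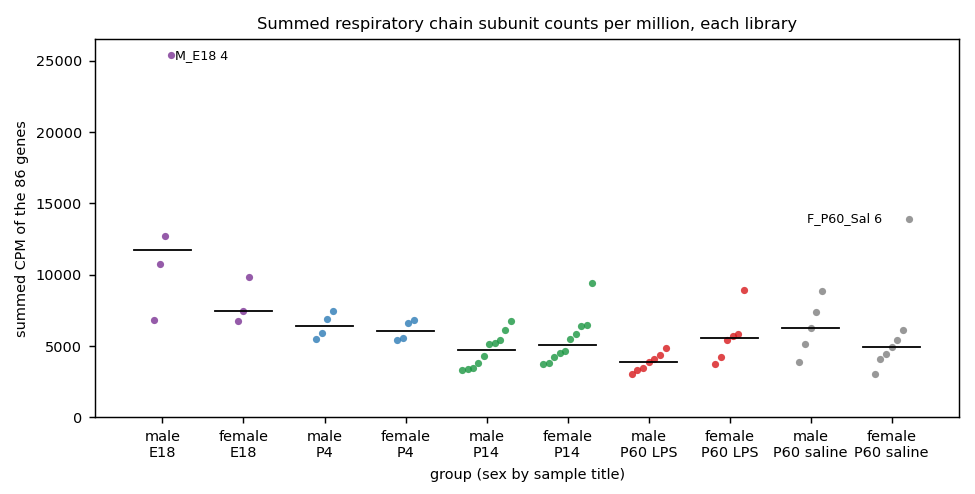
Summed CPM of the 86 genes (vertical axis) in each of the 60 libraries (points), by stage, treatment and sex by title, with the group median as a line. M_E18 4 at 25370 CPM and F_P60_Sal 6 at 13910 CPM lie above all other libraries.

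All 5 complexes had the same order of medians, with E18 highest, then P4, P60 with saline and P14. Complex I genes summed to a median of 2650 CPM at E18, 1671 at P4, 1303 at P14 and 1546 in P60 saline libraries. For complex V the medians were 3819, 2464, 1801 and 1838 CPM over the same stages, and for complex IV 1467, 912.6, 736.7 and 774.2 CPM. Complexes II (753.5, 559.1, 452.6 and 517.2 CPM) and III (1063, 650.8, 552.3 and 613.6 CPM) had the same order.

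Within groups, the summed CPM moved with other measures of the library. In 8 of the 10 groups the library with the highest summed member CPM was also the one with the highest choroid plexus sum, and in 7 the lowest library was the same for both. Likewise, in 8 groups the highest library and in 8 the lowest was the same for the summed members and for the share of counts on transcripts of at most 1500 bases. Members are short, with a median transcript length of 738.5 bases against 2314 for all genes. Of the 86, 67 are at most 1500 bases long. The share of short transcripts counts these 67 too, so its agreement with the summed members is in part built in. The same members also enter the share where it is used as a covariate. Fits with the choroid plexus score or the share of short transcripts as a covariate, chosen after seeing the data, are given beside some results and in the closing section.

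**Figure D2:**
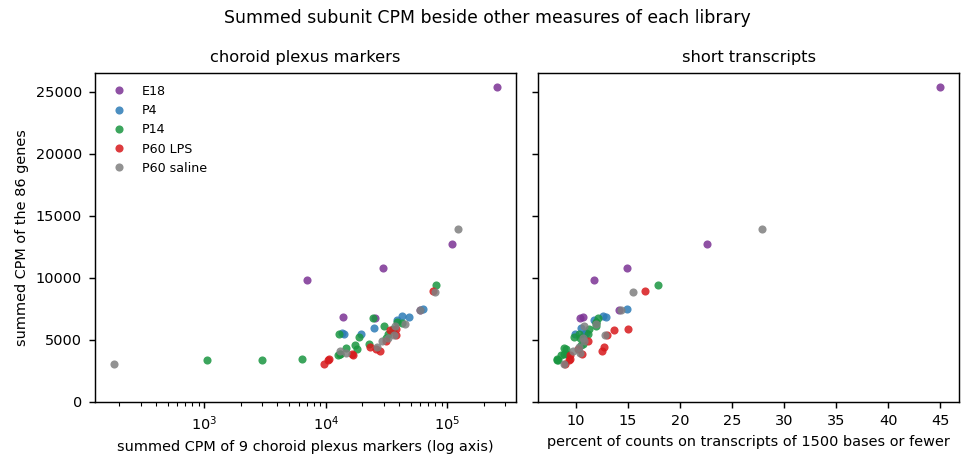
Summed CPM of the 86 genes (vertical axis) against the summed CPM of 9 choroid plexus markers (left, log axis) and the percent of counts on transcripts of at most 1500 bases (right), 1 point per library, coloured by stage and treatment. M_E18 4 is the point at the upper right of both panels, with 44.98% of counts on short transcripts.

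Within M_E18 4 the excess was broad. Over 74 members with a mean of at least 10 CPM, its level divided by the median of the other E18 libraries had a median of 3.255 and ran from 0.5668 to 6.477, and 62 members were over 2. The median ratio was 3.5 for members of at most 1500 bases and 2.194 for longer ones. In F_P60_Sal 6 the same ratio, over 73 members and against the other P60 saline libraries, had a median of 3.097, with 3.59 for short members and 2.002 for long ones.

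Between P4 and E18, transcripts of the respiratory chain were lower at P4. Of 80 members that passed the filter on low counts, 54 fell and 0 rose at a Benjamini-Hochberg adjusted p under 0.05 in edgeR's quasi-likelihood test over all genes, against 22.7% of all genes that fell and 25.5% that rose (48.3% in either direction). The median log2 fold change, P4 over E18, was -0.84 for members and 0.03 for all genes tested, and 77 of the 80 were below 0. The 6 members that did not pass the filter were Atp5g2, Atp5l, Cox6a2, Cox7b2, Cox8c and Ndufb4. Without M_E18 4, 22 of 79 members fell and 1 rose, against 22.6% of all genes that fell (44.1% in either direction), and the median was -0.50 against -0.03 for all genes. The share of members that fell was then closer to that of all genes, while 1 of 79 rose against 21.5% of all genes.

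By complex, 28 of 37 tested genes of complex I fell with all libraries (median log2 -0.97), 3 of 4 of complex II (-0.75), 6 of 8 of complex III (-0.75), 8 of 16 of complex IV (-0.82) and 9 of 15 of complex V (-0.73). Without M_E18 4 these counts were 13 of 37, 1 of 4, 2 of 8, 2 of 15 and 4 of 15. The fit with the share of short transcripts as a covariate called 7 members, 5 that fell and 2 that rose, with a median of -0.17, where 18.8% of all genes fell. The fit with the choroid plexus score called 61 members, 60 of them lower, where 23.6% of all genes fell.

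Several individual subunits fell at P4 with and without M_E18 4. The calls of Sdhb and Ndufv1 also held in every other setting tried. Sdhb, the iron-sulfur subunit of succinate dehydrogenase, had 65.67 to 75.6 CPM at P4 with a median of 68.27, against 77.71 to 284.9 CPM at E18 with a median of 151.2. Every P4 library lay below every E18 library. Sdhb differed by a log2 of -0.96 ± 0.21 (SE; adjusted p = 0.000233, edgeR), and -0.71 ± 0.18 without M_E18 4 (adjusted p = 0.00104).

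Ndufv1, the NADH-binding subunit of complex I, had 46.19 to 73.72 CPM at P4 (median 61.48) and 65.11 to 214.7 CPM at E18 (median 129.4). The groups overlapped in the lowest E18 library. Ndufv1 differed by a log2 of -0.99 ± 0.22 (adjusted p = 0.000342, edgeR) and -0.80 ± 0.21 without M_E18 4 (adjusted p = 0.00146).

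Among the core subunits of complex III, Uqcrc1 had 115.5 to 152.6 CPM at P4 (median 131.5) and 120 to 394.4 CPM at E18 (median 225.3). These ranges overlapped. Uqcrc1 differed by a log2 of -0.66 ± 0.19 (adjusted p = 0.00452, edgeR), and -0.44 ± 0.16 without M_E18 4 (adjusted p = 0.0215). Its partner Uqcrc2 fell by 0.63 (adjusted p = 0.0105) and, without M_E18 4, by 0.44 (adjusted p = 0.0461).

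In complex V, Atp5e, the epsilon subunit of the ATP synthase stalk, had the largest fall, with a log2 fold change of -1.12 (adjusted p = 0.00508, edgeR) and of -0.76 without M_E18 4 (adjusted p = 0.0423). It had 47.49 to 78.39 CPM at P4 and 60.11 to 356.4 CPM at E18. For Atp5b, the most abundant member, the call did not outlast the removal of that library. Atp5b had 756.9 to 939.5 CPM at P4 and 813.5 to 3152 CPM at E18, with log2 fold changes of -0.73 (adjusted p = 0.00921) and, without M_E18 4, -0.39 (adjusted p = 0.0832).

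The largest falls also included small accessory subunits of complex I and III whose calls depended on M_E18 4 to different degrees. Ndufb6 and Ndufb5 of the membrane arm fell by 1.20 (adjusted p = 0.00606, edgeR) and 1.19 (adjusted p = 0.00244), and by 0.83 (adjusted p = 0.0442) and 0.67 (adjusted p = 0.0393) without it. Ndufa13, also known as GRIM-19, fell by 1.21 (adjusted p = 0.0139) and Uqcr11 by 1.20 (adjusted p = 0.0263), and neither passed the threshold without it (adjusted p = 0.119 and 0.137). Uqcr11 also missed it without F_E18 2 (adjusted p = 0.0852), F_P4 2 (0.0522) or M_P4 4 (0.0514). Cox4i1 (log2 -0.91) and Uqcrh (log2 -0.96), the leading transcripts of complexes IV and III, were called with all libraries (adjusted p = 0.0139 and 0.0112) and not without M_E18 4 (adjusted p = 0.109 and 0.144).

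Not every member was lower. Sdha, the flavoprotein of complex II, had 235.5 to 279.7 CPM at P4 and 211.2 to 312.6 CPM at E18, a log2 fold change of 0.01 ± 0.16 (adjusted p = 0.962, edgeR). Ndufs1, the largest core subunit of complex I, was at -0.03 (adjusted p = 0.914). Ndufab1, the mitochondrial acyl carrier protein that also sits in complex I, had 2.649 to 7.422 CPM at P4 and 1.709 to 8.035 CPM at E18. It rose by a log2 of 1.01 without M_E18 4 (adjusted p = 0.0104), against 0.73 with all libraries (adjusted p = 0.0807). These genes have long transcripts for members, at 2900 bases for Sdha, 2661 for Ndufs1 and 3479 for Ndufab1, against a median of 738.5. Other long members, such as Sdhc (3171 bases) and Atp5a1 (2471 bases), fell with all libraries. The part of transcript length in these differences was not tested.

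**Figure D3:**
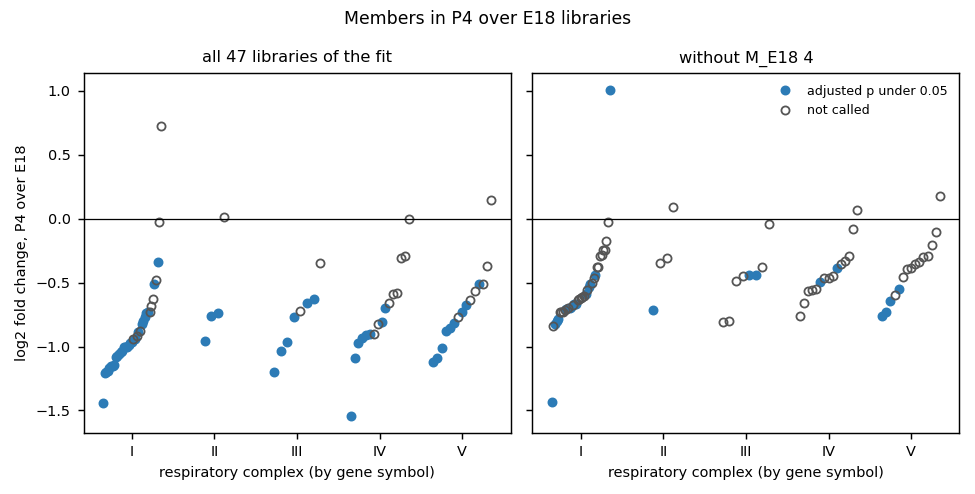
Log2 fold change, P4 over E18, of each tested member (points) by complex, with all libraries (left) and without M_E18 4 (right); filled points passed an adjusted p under 0.05 in edgeR. The number of members that fell was 54 of 80 on the left and 22 of 79 on the right.

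Few members were called between P14 and P4. Of 80 tested, 1 rose and 2 fell, where 41.5% of all genes were called. The median log2 fold change, P14 over P4, was -0.04 for members and -0.01 for all genes. None of these 3 calls changed direction in any fit that tested it, while the balance of rises and falls differed between fits. With the choroid plexus score as a covariate 4 rose and 2 fell, where 20.5% of all genes rose, and with the share of short transcripts 5 rose and 2 fell, where 23.5% of all genes rose. Atp5b had 425.8 to 899.7 CPM at P14 (median 619.3) and 756.9 to 939.5 CPM at P4 (median 896.4), and its log2 fold change of -0.16 did not pass the threshold (adjusted p = 0.534, edgeR). Cox4nb fell by 0.46 (adjusted p = 0.00299) and Cox6b2, an isoform of subunit VIb known from testis, by 1.20 (adjusted p = 0.00917). Cox8b was the member that rose and is described with the isoforms.

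At P60 with saline, 21 members rose and 1 fell compared with P14, against 18.5% of all genes that rose (44.1% in either direction). Members had a median log2 fold change of 0.38, against -0.06 for all genes, and 72 of 80 members were above 0. The count differed with single libraries. Without F_P60_Sal 6, 11 rose and 2 fell (median 0.20), where 20.7% of all genes rose. Without M_E18 4, which enters only the shared estimates of scaling and spread, 38 rose and 1 fell, where 24.6% of all genes rose, and without F_P14 5, 40 rose, where 22.9% of all genes rose. With the choroid plexus score as a covariate 10 rose and 2 fell, where 16.8% of all genes rose, and with the replicate number as a block 5 rose and 2 fell, where 16.6% of all genes rose. Of the 22 calls, 6 held with the block, among them Sdha and Ndufs1.

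Complex I held 11 of the members that rose with all libraries. Ndufa12, an accessory subunit of the electron input module, had 4.554 to 56.11 CPM at P60 with saline (median 19.25) and 3.307 to 28.54 CPM at P14 (median 9.557), with a log2 fold change of 0.87 ± 0.30 (adjusted p = 0.0165, edgeR). Without F_P60_Sal 6 it was 0.71 (adjusted p = 0.0438). Ndufa1 (0.85, adjusted p = 0.0226) and Ndufa4 (0.84, adjusted p = 0.0156) rose with all libraries and did not pass the threshold without F_P60_Sal 6 (adjusted p = 0.0914 and 0.0624).

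Sdha and Ndufs1, which did not pass the test at P4 over E18, were among the rises that held without F_P60_Sal 6. Sdha had 206.6 to 451.4 CPM at P60 with saline (median 263.1) and 166.3 to 294.1 CPM at P14 (median 210.2). Most P60 libraries lay within the P14 range. Its log2 fold change was 0.41 ± 0.11 (adjusted p = 0.00257, edgeR) and 0.38 without F_P60_Sal 6 (adjusted p = 0.00162). Ndufs1 had 77.74 to 175.9 CPM at P60 and 51.85 to 151.9 CPM at P14, with log2 fold changes of 0.44 (adjusted p = 0.00245) and, without F_P60_Sal 6, 0.45 (adjusted p = 0.00126).

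In complex III, Uqcrc2 rose by a log2 of 0.40 (adjusted p = 0.0218, edgeR), and 0.33 without F_P60_Sal 6 (adjusted p = 0.0361). In complex V, Atp5h, which has near copies, rose by 0.62 (adjusted p = 0.0341) and Atp5j, the coupling factor 6 subunit, by 0.61 (adjusted p = 0.0196), and neither passed the threshold without F_P60_Sal 6 (adjusted p = 0.079 and 0.0502). Atp5h also missed it without M_P60_Sal 3 (adjusted p = 0.0508) or M_P60_Sal 4 (0.0562). Cox7a2l, the supercomplex factor, was the member that fell. It had 51.1 to 147.1 CPM at P60 with saline (median 68.6) and 76.91 to 138.5 CPM at P14 (median 101.1), with a log2 fold change of -0.46 ± 0.16 (adjusted p = 0.016), and -0.52 without F_P60_Sal 6 (adjusted p = 0.00492). This fall missed the threshold under the 3 other scalings (adjusted p = 0.0505 to 0.0659) and when any of 11 other libraries was left out, among them F_P60_Sal 2 (adjusted p = 0.0701).

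Over the whole interval, P60 with saline against E18, 27 members fell and 4 rose, where 34.8% of all genes fell and 31.4% rose (66.3% in either direction). The share of members that fell is therefore close to that of all genes. Members had a median log2 fold change of -0.52, against -0.08 for all genes. Without M_E18 4, 14 fell and 6 rose (median -0.19), where 35.4% of all genes fell. Without F_P60_Sal 6, 59 fell and 2 rose (median -0.84), where 38.4% of all genes fell. With the share of short transcripts as a covariate, 15 fell and 14 rose, where 33.7% of all genes fell and 33.4% rose, and the member median was 0.01.

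The members that rose over this interval were Cox8b, Ndufab1 (log2 0.91, adjusted p = 0.0162), Sdha (0.42, adjusted p = 0.0134) and Ndufs1 (0.41, adjusted p = 0.0204), all by edgeR. Sdha and Ndufs1 did not pass the threshold without F_P60_Sal 6 (adjusted p = 0.0699 and 0.0691), nor under the 3 other scalings, while their direction held. Sdha also missed it without F_E18 3 (adjusted p = 0.0916) or M_P60_Sal 3 (0.0569), Ndufs1 without any of 7 libraries (up to 0.0866, M_P60_Sal 3), and Ndufab1 without F_E18 2 (0.0655) or M_E18 3 (0.0755). Among the falls, Ndufa4l2 and Cox4i2 were the largest and are described with the isoforms. Atp5o, the stalk subunit known as OSCP, which has a near copy, fell by 1.17 (adjusted p = 0.000605), Cox7a2l by 0.95 (adjusted p = 4.03e-05), Ndufb8 by 0.93 (adjusted p = 0.00155) and Atp5d by 0.91 (adjusted p = 0.000856). Without M_E18 4 these falls were 0.79 for Atp5o (adjusted p = 0.0119), 0.62 for Cox7a2l (adjusted p = 0.000588), 0.50 for Ndufb8 (adjusted p = 0.0422) and 0.72 for Atp5d (adjusted p = 0.00711).

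Uqcrc1 had 62.62 to 124.4 CPM at P60 with saline (median 91.66) and 120 to 394.4 CPM at E18 (median 225.3), overlapping in the highest P60 and the lowest E18 libraries. Its difference on the log2 scale was -0.88 ± 0.18 (adjusted p = 2.62e-05, edgeR), and -0.65 without M_E18 4 (adjusted p = 0.000157). Sdhb fell by 0.67 (adjusted p = 0.00217) and, without M_E18 4, by 0.40 (adjusted p = 0.0296). The subunits of complex II therefore differed in direction, with Sdha higher and Sdhb lower at P60, and a test of that difference between genes was not made. Their transcripts also differ in length, with 2900 bases for Sdha and 1142 for Sdhb, and the part of length was not tested.

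With LPS at P60, 2 members passed the test, both lower than with saline, Ndufa8 and Cox4nb. The summed CPM had a lowest, median and highest library of 3021, 4214 and 8945 CPM with LPS and of 3068, 5277 and 13910 CPM with saline. The lowest library was an LPS library, and all other LPS libraries lay within the saline range. Of 74 members that passed the filter in these 25 libraries, 2 fell and 0 rose, where 3.95% of all genes fell and 14.4% were called in either direction. The median log2 fold change, LPS over saline, was -0.36 for members and -0.07 for all genes, with 72 of 74 below 0. Without F_P60_Sal 6 it was -0.11, with 65 below 0 and again 2 called, where 4.54% of all genes fell. With the share of short transcripts as a covariate 4 fell and 0 rose, where 5.67% of all genes fell. A further 6 members did not pass the filter in this fit, Cox4i2, Cox5b, Cox7a1, Cox7c, Ndufa4l2 and Ndufab1.

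Ndufa8 had a lowest, median and highest level of 10.51, 20.1 and 40.99 CPM with LPS and of 18.22, 36.06 and 87.28 CPM with saline. Most LPS libraries lay below the saline median, with overlap. Its log2 fold change was -0.70 ± 0.21 (adjusted p = 0.024, edgeR), and -0.50 without F_P60_Sal 6 (adjusted p = 0.0291). Without F_P60_LPS 4 its adjusted p was 0.0563. Cox4nb, not a respiratory subunit, had 9.338 to 35.05 CPM with LPS and 27.32 to 58.52 CPM with saline, with a log2 fold change of -0.52 ± 0.16 (adjusted p = 0.0277) and -0.49 without F_P60_Sal 6 (adjusted p = 0.034). It missed the threshold without F_P60_LPS 1 (adjusted p = 0.0534), F_P60_Sal 7 (0.0578) or M_P60_Sal 3 (0.0654), and with the replicate number as a block (0.0547).

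Fitted by the sex in the title, 6 members fell with LPS in males, where 7.57% of all genes fell. In females 0 were called, where 5.06% of all genes were. At an unadjusted p under 0.05 the female test held 0 of 74 members and 1526 of 10538 genes. The median log2 fold change of members was -0.62 in males and -0.13 in females. The male members called were Ndufa8, Ndufs5, Ndufv1, Sdhb, Uqcrc1 and Cox4nb. A difference between the sexes was not shown by these counts. Its own test, the male minus the female log2 fold change with LPS, called 0 of 74 members in edgeR, where 0.883% of all genes were called, with 6 members at an unadjusted p under 0.05. DESeq2 called 1 member, where it called 5.7% of all genes.

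The summed CPM of members was 3021, 3855 and 4864 in male LPS libraries (lowest, median, highest), against 6281, 3917, 8848, 7388 and 5155 in the 5 male saline libraries. In females it was 3744, 5566 and 8945 with LPS and 3068, 4909 and 13910 with saline. Both pairs of groups overlapped.

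In male libraries Uqcrc1 had a lowest, median and highest level of 36.19, 59.3 and 67.6 CPM with LPS, against 98.9, 83.46, 85.17, 120.1 and 124.4 CPM in the 5 saline libraries. Every male LPS library lay below every male saline library. In males it differed by a log2 of -0.73 ± 0.20 (adjusted p = 0.00999, edgeR) and in females by 0.14 ± 0.19 (adjusted p = 0.829), and the difference between them was -0.87 ± 0.28 (adjusted p = 0.0833).

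Ndufv1 in males had 22.18, 31.92 and 38.37 CPM as the lowest, median and highest level with LPS, against 58.5, 45.29, 48.01, 72.14 and 77.16 CPM with saline. Again the male groups did not overlap. Its log2 fold change was -0.80 ± 0.26 in males (adjusted p = 0.0272, edgeR) and 0.24 ± 0.25 in females (adjusted p = 0.756). For Sdhb the male LPS libraries had 27.02 to 47.66 CPM and the male saline libraries 53.87, 56.2, 60.39, 84.24 and 81.7 CPM, also without overlap, with a log2 fold change of -0.74 ± 0.25 (adjusted p = 0.0399).

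The test between the sexes moved with F_P60_Sal 6. Without it, a fit chosen after seeing the data, 21 members fell with LPS in males (8.99% of all genes fell). That library is titled female and enters the male test only through the shared estimates of scaling and spread. In females 0 were called (5.3% of all genes were called), the median turned to 0.35 and 72 of 74 members were above 0. The test of the difference then called 9 members, all lower in males, where 4.56% of all genes were called, with a member median of -0.98. They were Ndufa11 (-2.27), Uqcr10 (-1.79), Ndufa13 (-1.78), Ndufa7 (-1.34), Cox4i1 (-1.33), Ndufv1 (-1.29), Ndufa8 (-1.21), Ndufs8 (-1.13) and Atp5a1 (-0.90), with adjusted p-values in edgeR of 0.029 for Ndufv1 to 0.0489 for Uqcr10.

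Choroid plexus markers moved in the same way between these groups. Their summed level was 9765 to 31340 CPM in male LPS libraries and 14770 to 79780 CPM in male saline libraries, and 16630 to 76290 CPM in female LPS libraries and 181 to 123600 CPM in female saline libraries. With the choroid plexus score as a covariate, 2 members fell in males (median log2 -0.21), where 4.82% of all genes fell. In females 0 were called (median -0.26), where 5.76% of all genes were called, and the test of the difference called 0 members and 0% of all genes, with a member median of 0.05. With LPS, neutrophil markers summed to 369.3 to 5782 CPM, against 20.53 to 426.3 CPM with saline, and monocyte markers to 107.5 to 916.3 CPM, against 36.95 to 145.9 CPM. Endothelial and pericyte markers (11 measured, none at 0 throughout the LPS or the saline libraries) summed to 561.1 to 946.4 CPM in male LPS libraries and 1168 to 2397 CPM in male saline libraries, without overlap, and to 950 to 1626 CPM in female LPS libraries and 661.1 to 2885 CPM in female saline libraries. In males 6 of these 11 fell, among them Cldn5, a tight junction gene, by a log2 of 4.91 (adjusted p = 2.04e-07, edgeR) and Pecam1 by 1.12 (adjusted p = 0.000546). Without F_P60_Sal 6 these falls were 4.89 and 1.09. In that fit Cdh5, another of the 11, was at 0.22 in males (adjusted p = 0.564, edgeR). In females Cdh5 rose there by 1.435 (adjusted p = 0.000637), Kdr fell by 1.101 (adjusted p = 0.0499), and the others were not called. Astrocyte markers summed to 292.9 to 682.2 CPM with LPS and 194.5 to 377.3 CPM with saline. The part of the neutrophil, monocyte, endothelial and astrocyte lists in the LPS results was not tested.

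**Figure D4:**
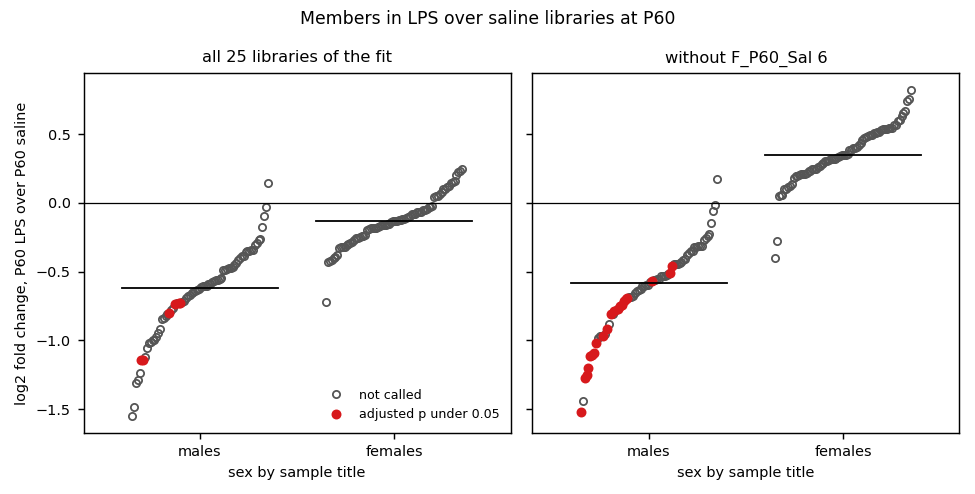
Log2 fold change, LPS over saline at P60, of each tested member (points) in males and females by title, with all 25 libraries (left) and without F_P60_Sal 6 (right); lines are medians and filled points passed an adjusted p under 0.05 in edgeR. The female median is -0.13 on the left and 0.35 on the right.

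Genes known to act on respiration in activated macrophages were called with LPS. Irg1, which encodes the enzyme that makes itaconate, an inhibitor of succinate dehydrogenase, had a lowest, median and highest level of 19.53, 116.5 and 451.4 CPM with LPS and of 0, 0.976 and 5.42 CPM with saline. Every LPS library lay above every saline library. Irg1 rose by a log2 of 6.06 ± 0.48 (adjusted p = 1.57e-10, edgeR). AA467197, an older symbol of the mouse gene Nmes1, whose product resembles the subunit encoded by Ndufa4, had 1.03, 10.4 and 39.5 CPM with LPS and 0, 0.194 and 1.25 CPM with saline. The lowest LPS library fell within the saline range. AA467197 rose by a log2 of 5.10 ± 0.51 (adjusted p = 1.07e-08). Ndufa4 itself was at -0.48 (adjusted p = 0.344).

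Sod2, the mitochondrial superoxide dismutase, rose with LPS by a log2 of 1.47 ± 0.22 (adjusted p = 1.05e-05, edgeR). In all, 5 of 16 tested genes linked to respiration after LPS rose and 0 fell, also without F_P60_Sal 6, where 10.5% of all genes rose with all libraries. That list was chosen for a known link to activation. Of 14 regulators of mitochondrial biogenesis, Gabpb1, a partner of GABPA, rose by 0.67 (adjusted p = 0.000137) and Pprc1, a coactivator related to PGC-1, by 0.82 (adjusted p = 0.00252). Tfam, which maintains mitochondrial DNA, was at -0.33 (adjusted p = 0.192), Ppargc1a at -0.04 (adjusted p = 0.952) and Cyc1, the cytochrome c1 of complex III that the symbol rule does not take in, at -0.35 (adjusted p = 0.197). None of 27 assembly factors, 18 genes of the TCA cycle and pyruvate dehydrogenase, 8 carriers and 19 genes of import and cristae was called.

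Among the alternative isoforms, Cox8b, the heart and skeletal muscle isoform of subunit VIII, was at 0 in 6 of 7 E18 libraries and 7 of 8 P4 libraries, with a single count at each of these stages. At P14 its lowest, median and highest level was 0, 0.946 and 5.12 CPM, with 6 of 20 libraries at 0. At P60 it was 0.751, 3.98 and 23.6 CPM with LPS and 0, 5.22 and 32.4 CPM with saline. P60 saline libraries thus reached above all earlier ones, and they overlapped with P14. By pooled counts the ratio of Cox8b at P14 over P4 was 24.3, with an exact 95% counting interval of 4.16 to 981, and of P60 saline over E18 108, with an interval of 19.1 to 4292. These intervals cover counting error only. Cox8b rose in edgeR in both comparisons (adjusted p = 0.00398 and 8.77e-08), and from P14 to P60 with saline by a log2 of 2.88 ± 0.48 (adjusted p = 5.14e-06), or 2.60 without F_P60_Sal 6 (adjusted p = 1.83e-05). With LPS it was at -0.44 (adjusted p = 0.642). Cox8a, the widely expressed isoform, had 25.05 to 285.5 CPM in P60 saline libraries and 67.42 to 572.6 CPM at E18.

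Cox7a1, the muscle isoform of subunit VIIa, also rose at P60 with saline over P14. It had 0, 3.40 and 7.57 CPM at P60 with saline and 0, 1.42 and 4.60 CPM at P14 as lowest, median and highest level. The ranges overlapped. The log2 fold change was 1.20 ± 0.42 (adjusted p = 0.0196, edgeR) and 1.16 without F_P60_Sal 6 (adjusted p = 0.0284). Its widely expressed counterpart Cox7a2 was at 0.58 (adjusted p = 0.0636). Cox6b2, which fell at P14 relative to P4, had 0.816, 7.11 and 20.5 CPM at P14 and 8.66, 19.1 and 42.1 CPM at P4. At P60 with saline over P14 it rose by a log2 of 0.93 (adjusted p = 0.0332, or 0.0906 without F_P60_Sal 6 and 0.0991 without M_P60_Sal 3).

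Ndufa4l2 and Cox4i2, both known as genes induced by low oxygen, were highest at E18. Ndufa4l2 had a lowest, median and highest level of 1.30, 2.85 and 5.06 CPM at P4 and of 3.59, 9.50 and 11.96 CPM at E18. The 2 stages overlapped in the lowest E18 library. Its log2 fold change was -1.44 ± 0.40 (adjusted p = 0.00318, edgeR), and -1.44 without M_E18 4 (adjusted p = 0.00413), and every other library left out in turn kept the call. At P60 with saline it was -1.99 relative to E18 (adjusted p = 2.6e-05), and 7 of 13 LPS libraries were at 0.

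Cox4i2, known from lung and from vascular smooth muscle and pericytes, had 0, 1.27 and 2.08 CPM at P4 and 1.03, 3.35 and 10.1 CPM at E18. Again the ranges overlapped. Its log2 fold change was -1.55 ± 0.52 (adjusted p = 0.0123, edgeR), and it did not pass the filter on low counts without M_E18 4 nor the threshold without F_E18 2 (adjusted p = 0.127). At P60 with saline it fell by 1.64 relative to E18 (adjusted p = 0.00403, or 0.0689 without F_E18 2), and 7 of 13 LPS libraries had no count. At these levels most libraries hold a few counts of each isoform, so depth limits the precision.

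**Figure D5:**
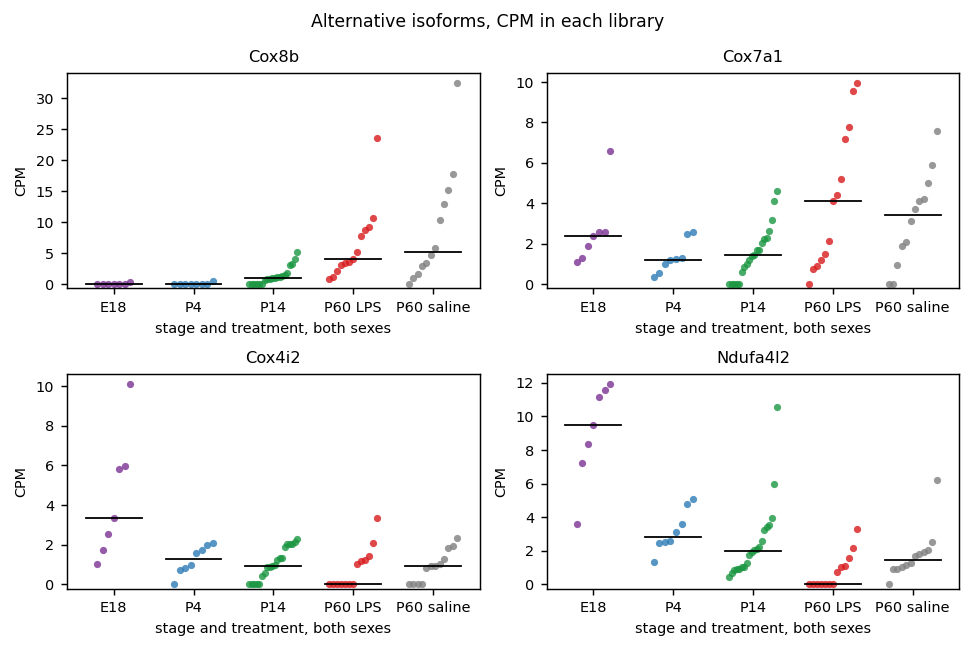
CPM of Cox8b, Cox7a1, Cox4i2 and Ndufa4l2 in each library (points) by stage and treatment, both sexes together, with the group median as a line. Cox8b is at 0 in most E18 and P4 libraries and reaches 32.4 CPM at P60 with saline, and Ndufa4l2 has its highest median, 9.50 CPM, at E18.

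No member was called between the sexes by title. In edgeR 0 of 80 members were called at E18, P4, P14 and P60 with saline, and 0 of 74 at P60 with LPS, where 0.0722%, 0.0433%, 0.0433%, 0.0433% and 0.142% of all genes were called. At an unadjusted p under 0.05 the counts were 68, 0, 4, 0 and 14 members. Over all genes they were 2602, 46, 655 and 1340 of 13853, and 1710 of 10538 at P60 with LPS. The median log2 fold change, male over female, was 1.35 at E18, 0.07 at P4, -0.28 at P14, -0.05 at P60 with saline and -0.59 at P60 with LPS. At E18 the summed CPM was 10760, 6812, 12700 and 25370 in male libraries and 6760, 9825 and 7425 in female libraries. The highest of these is the library labelled M_E18 4, without which the E18 median was 0.42 and 0 members were called, where 0.0433% of all genes were. Calls at E18 were made in other fits, all of which hold M_E18 4, a library that is titled male and goes against that title. DESeq2 called 27 members, higher in the libraries titled male, where it called 3.61% of all genes. edgeR called 65 when M_E18 2, the lowest male library, was left out (18% of all genes), 42 without M_E18 1 (5.95%) and 6 without F_P60_Sal 6 (0.699%).

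The rest of the pathway was read from lists of related genes. Of 31 assembly factors, 10 fell and 1 rose at P4 over E18, where 22.7% of all genes fell and 25.5% rose, and without M_E18 4, 9 of 32 fell and 0 rose, where 22.6% of all genes fell and 21.5% rose. The genes named from these lists for P4 over E18, other than Cycs, were also called without that library. With all libraries Cox19 (log2 -1.38, adjusted p = 5.57e-06, edgeR), Surf1 (-1.02, adjusted p = 0.000477) and Ecsit (-0.88, adjusted p = 0.000284) were lower. At P60 with saline over P14, 15 of these 31 rose and 2 fell, where 18.5% of all genes rose and 25.7% fell. Among those that rose were Tmem126b (1.23, adjusted p = 1.09e-05) and Tmem70 (0.92, adjusted p = 9.23e-08), assembly factors of complexes I and V. That count was 14 risen and 1 fallen of 32 without F_P60_Sal 6.

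Of 15 regulators of biogenesis, 6 rose and 2 fell at P4 over E18, and 5 rose and 2 fell without M_E18 4. With 25.5% and 21.5% of all genes risen in these fits, that list is not set apart by its count. Gabpa, the ETS factor of respiratory genes, rose by a log2 of 0.69 (adjusted p = 5.6e-05, edgeR) and Pprc1 by 1.14 (adjusted p = 0.000223), while Tfam fell by 0.42 (adjusted p = 0.0282). At P60 with saline over P14, Tfam rose by 0.58 (adjusted p = 8.3e-05) and Ppargc1a, the coactivator PGC-1 alpha, by 0.79 (adjusted p = 0.0355), while Pprc1 (-1.14), Nrf1 (-0.76) and Gabpb1 (-0.67) fell.

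The TCA cycle list was mixed at P4 over E18, with 2 of 18 genes higher and 4 lower, the same counts without M_E18 4, and shares near or under those of all genes given above. Of 10 carriers of electrons and nucleotides 5 fell and 0 rose (4 and 0 without M_E18 4), including Cyc1 (-0.73, adjusted p = 0.00518, edgeR) and the porins Vdac3 (-0.84) and Vdac1 (-0.64), and of 19 genes of protein import and cristae 8 fell and 0 rose (7 and 0 without M_E18 4), including Timm50 (-0.93) and Chchd6 (-1.65). Cycs, somatic cytochrome c, was at 0.05 there (adjusted p = 0.914) and rose by 0.84 at P60 with saline over E18 (adjusted p = 0.0181). Atpif1, the inhibitor of ATP synthase, fell by 1.23 at P4 over E18 (adjusted p = 4.4e-05), and Ucp2, an inner membrane carrier known from macrophages, rose by 0.93 (adjusted p = 0.000111).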

How the data were processed

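PolyA RNA sequencing of microglia gave 60 libraries. Values are whole-number read counts per transcript row that the authors deposited in a table of the whole series. Per the submitters' processing notes, CASAVA 1.8.2 and edgeR were used and the build is mm9. The aligner is not given in the sources used here. Per the labels' protocols, RNA was extracted with Trizol and a stranded polyA kit was used.

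From 28644 rows, 1 row was kept for each of 22869 gene symbols, the row the table marks as best or, for 881 symbols without a mark, the row with the highest total. CPM was computed over all genes. Groups follow the sample titles. Title and sex characteristic differed in 10 libraries, and the title was used. Among 178 pairs of libraries of the same group, none was a copy (the chi-square of their counts, per gene, was between 1.96 and 101).

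edgeR 4.0.16 (TMM, robust quasi-likelihood F test, two-sided, Benjamini-Hochberg over all genes, R 4.3.3) was fitted to 47 untreated and saline libraries in 8 groups and to 25 P60 libraries in 4 groups, with the sexes weighted equally. In simulated counts the P4 over E18 test recovered 60.8% of 2-fold and 91.9% of 4-fold changes over 13424 genes, and the LPS test 75.3% and 100% over 10435 genes. Alternatives were DESeq2 1.42.0, 3 other scalings, filters, choice of row, left-out libraries, replicate and date blocks and, chosen after seeing the data, the covariates and the results shown without F_P60_Sal 6. The members, lists, tests and alternatives were chosen with earlier results of these data known. Of members, the text names the called genes with the largest changes overall and per complex, the highest per kilobase, and the alternative isoforms. Other members named beside these and the genes called in males with LPS were chosen after their values were seen.

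Samples of the same number share a label date between the sexes at P4 (4 of 4 pairs) and P14 (10 of 10). Correlations of same-numbered deviations were all over 0.1 between the sexes at E18 (3 pairs, 0.101 to 0.464) and P4 (4 pairs, 0.163 to 0.525). The same held between female P4 and E18 libraries (3 pairs, 0.134 to 0.509). Elsewhere only some or none were, from 0 of 6 between the sexes at P60 with LPS to 9 of 10 at P14 (-0.16 to 0.341). Between male P4 and E18 libraries, and between male P60 saline and E18 libraries, 3 of 4 pairs were over 0.1.

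Near copies were sought with blastn 2.17.0 against GENCODE transcripts. Promoters are RefSeq's on GRCm38.p6, another build than that of the counts, and were matched by symbol only. Intervals and limits from counts cover counting error only.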

Additional observations from a re-analysis of the deposited data

Results flagged for a closer look

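Within groups of 4 to 10 libraries, the summed CPM of the 86 genes had an extreme library in 2 of 9 groups tested. F_P60_Sal 6 had 13910 CPM and F_P14 5 had 9389 CPM, each far above the next library of its group. Chance marks about 1 in 20 groups in this way. F_P14 5 had 7.747% of its counts on Ttr and 17.95% on transcripts of at most 1500 bases, both the highest of its group, and their part in the result was not tested.

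Over 11 genes and 98 combinations of gene and group, 15 single values stood far from the rest of their group. In F_P60_Sal 6 these were Sdha at 451.4 CPM, Ndufa8 at 87.28, Ndufa4 at 549.9, Cox8b at 32.42 and Ndufa4l2 at 6.234 CPM, all high. In F_P60_LPS 2, the second shallowest library, Ndufs1 was at 229.8, Ndufa4 at 376.4 and Cox8b at 23.6 CPM, with Ttr at 6.905% of counts. In F_P14 5, Ndufa8 was at 72.63 and Cox7a1 at 4.603 CPM. Ndufs1 was low in F_P4 2, at 91.13 CPM. Cox8b was the sole value above 0 in its group in M_E18 2 (0.3725 CPM) and M_P4 1 (0.5297 CPM), each from a single count, and high in M_P14 5 (3.078 CPM). Ndufa4l2 reached 3.289 CPM in M_P60_LPS 5. No single-gene value stood out in this way in M_E18 4, where the rule is strict. In a group of 4 the gap to the next library must exceed 0.829 of the range, against 0.466 in a group of 10. Of 74 members, 62 in M_E18 4 were over 2 times the median of the other E18 libraries, as given above.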

How the results depend on the processing

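Of 14 settings other than left-out libraries, most kept the number of members called within 1.5 times. The counts of members in this section show how calls moved between fits. The share of all genes called in each fit is not set beside them, so they do not compare members with all genes. The exceptions at P4 over E18 were 20 calls without the 3 libraries over 10% Ttr and 7 with the share of short transcripts as a covariate (median -0.17, Ndufa9 turning to 0.06 and Sdhd to 0.063). P14 over P4 gave 6 calls (4 higher) with the choroid plexus covariate and 7 (5 higher) with the short transcript covariate, where most calls were higher instead of lower. P60 saline over P14 gave 7 calls with the replicate block and 12 with the choroid plexus covariate. P60 saline over E18 gave 47 calls with the replicate block, and a median of 0.012 with the short transcript covariate (Ndufb5 0.015, Sdhd 0.034). LPS over saline gave 4 calls with each of DESeq2, upper quartile scaling and the short transcript covariate. Sex by LPS gave 1 call with DESeq2, 9 without libraries over 10% Ttr and 1 with the short transcript covariate. Male over female gave 27 calls with DESeq2 at E18 and 1 with a date block at P60 with LPS. The cause of these shifts was not tested, beyond the covariates' own construction. In the other comparisons the replicate block gave 57 calls at P4 over E18, 3 at P14 over P4, 2 for LPS and 0 between the sexes.

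Leaving out each of 60 libraries in turn gave 23 to 67 calls at P4 over E18 (median -1.003 to -0.495), 3 to 3 at P14 over P4 (-0.16 to 0.00), 13 to 40 at P60 saline over P14 (0.20 to 0.54), 20 to 61 at P60 saline over E18 (-0.84 to -0.19), 1 to 3 for LPS (-0.45 to -0.11), 0 to 9 for sex by LPS, 0 to 65 between the sexes at E18 and 0 to 0 in the other sex comparisons.

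Other scalings moved the median of all genes at P4 over E18 to between -0.12 and -0.09, and the split of all calls to 2832 higher and 3987 lower, against 3535 and 3151 with TMM. At P60 saline over E18 members were called 1 higher and 40 lower with RLE scaling, and for LPS all genes split into 956 and 718 with upper quartile scaling, against 1102 and 416. Low depth limits genes under 10 CPM most.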
